A study of Mus musculus with 6 samples.

Results

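Microglia without disease-associated genes were nuclei of the rd10 mouse retina that carried microglial marker RNA and no RNA of a fixed set of genes linked to disease-associated microglia. A nucleus was a member when it had more than 500 UMIs (unique molecular identifiers, 1 per captured RNA molecule), at least 200 genes and under 5% mitochondrial UMIs. It also needed a UMI of at least 3 of the 10 genes Inpp5d, Csf1r, Cx3cr1, C1qa, C1qb, P2ry12, Tmem119, Dock8, Ikzf1 and Fyb. No UMI was allowed of Itgax, Gpnmb, Lpl, Igf1, Spp1, Atp6v0d2, Cst7, Mrc1 and Top2a, nor of the neuronal genes Cntn5, Zmat4, Slc17a6, Gad1 and Trpm1. Of 56205 nuclei past the depth and mitochondrial limits, 513 were members, and 621 nuclei that met the other terms but had a UMI of at least 1 of the 9 disease-associated genes formed the comparison population.

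All mice carried the rd10 allele of the rod phosphodiesterase gene Pde6b (strain B6.CXB1-Pde6b-rd10/J), which leads to photoreceptor death, so both groups were degenerating retinas and no unaffected or uninjected retina was analysed here. The saline control group (libraries 1, 2 and 6) received saline into the vitreous at P18, and the IL-27 group (libraries 4, 5 and 10) received 20 ng recombinant IL-27, and retinas of both groups were taken at P20 for single-nucleus RNA sequencing (snRNA-seq). The labels do not say whether a library is 1 eye, 1 mouse or a pool, so p-values measure only the spread between these 3 against 3 libraries. The comparison asks whether IL-27 altered the RNA of retinal microglia 2 days after injection.

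Microglia are the resident macrophages of the retina. In the healthy tissue they survey neurons and synapses through purine and fractalkine receptors and depend on CSF1R signalling, a state usually called homeostatic. Around dying photoreceptors many of them take on a disease-associated state, with genes of lipid handling, lysosomes and phagocytosis induced and homeostatic genes lowered. IL-27 signals through IL27RA and gp130 (Il6st) to JAK kinases and STAT transcription factors.

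The members numbered 102, 75 and 58 in saline 1, 2 and 6 and 105, 125 and 48 in IL-27 4, 5 and 10. The comparison population numbered 110, 94 and 71 in saline 1, 2 and 6 and 97, 177 and 72 in IL-27 4, 5 and 10. Members held 136943 to 283017 UMIs per library, so 1 UMI stood for 3.53 to 7.30 CPM (counts per 1000000 UMIs summed over the nuclei in question of a library), and low values moved in steps of that size. Their median depth was 1996 UMIs, against 2502 in the comparison population and 3664 in all other nuclei. Xist, transcribed from the inactive X chromosome, lay at 1646 CPM in saline 2 and 1208 CPM in IL-27 5 and at or below 3.91 CPM in the other libraries, and the Y-linked gene Uty lay at 0 CPM in those libraries and at 299 to 332 CPM in the other libraries. By these genes 1 library of each group was from female and 2 were from male tissue, which the labels do not give. With a block on this split, edgeR called 0 of 5491 genes for IL-27 in the members and 0 of 3190 in the strict subset defined with the marker check (0 without the block in both). By an unadjusted p under 0.05, the block gave 94 higher and 214 lower genes in the members and 49 higher and 55 lower in the subset. Libraries shared 18 to 30 cell barcodes in pairs, none of them a member.

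Members made up 40% to 52.0% of the microglia of a library. The share was 48.1%, 44.4% and 45.0% in saline 1, 2 and 6 and 52.0%, 41.4% and 40% in IL-27 4, 5 and 10, with 95% exact Clopper-Pearson intervals that reached from 31.2% to 59.0% over the libraries and cover counting error only. The mean was 45.8 ± 2.01% in saline and 44.5 ± 6.55% for IL-27 (SD over 3 libraries each), the groups overlapped, and the two-sided exact permutation p was 0.8, where 3 against 3 cannot go below 0.1. Of all nuclei kept, members were 1.03%, 0.846% and 0.616% in saline 1, 2 and 6 and 1.12%, 1.35% and 0.510% in IL-27 4, 5 and 10, a mean of 0.831 ± 0.209% against 0.994 ± 0.435% (exact permutation p 0.7, two-sided). IL-27 5 had the highest and IL-27 10 the lowest share of all nuclei, so the spread within the IL-27 group was wider than the gap between groups.

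The absence of a UMI depends on depth. When every nucleus of at least 1000 UMIs was thinned to 1000 and the rule applied again, the share of microglia without disease-associated genes was 67.6%, 61.0% and 55.7% in saline 1, 2 and 6 and 65.2%, 61.2% and 56.8% in IL-27 4, 5 and 10, a mean of 61.5 ± 5.96% in saline and 61.1 ± 4.18% in IL-27 libraries (exact permutation p 1). Thinning left out 616 to 1077 shallower nuclei per library, 3 to 12 of them members. At the limit of the rule, 211 of the 621 nuclei of the comparison population (34.0%) had exactly 1 UMI of the 9 genes. Igf1, a growth factor gene of reactive microglia, had a UMI in 34.5% of that population and in 13.3% of all other nuclei, and Gpnmb, a glycoprotein of lipid-laden phagocytes, in 47.8% and 4.34%. One Igf1 UMI was enough to move a nucleus out of the members, and non-microglial nuclei held Igf1 UMIs too.

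**Figure D1:**
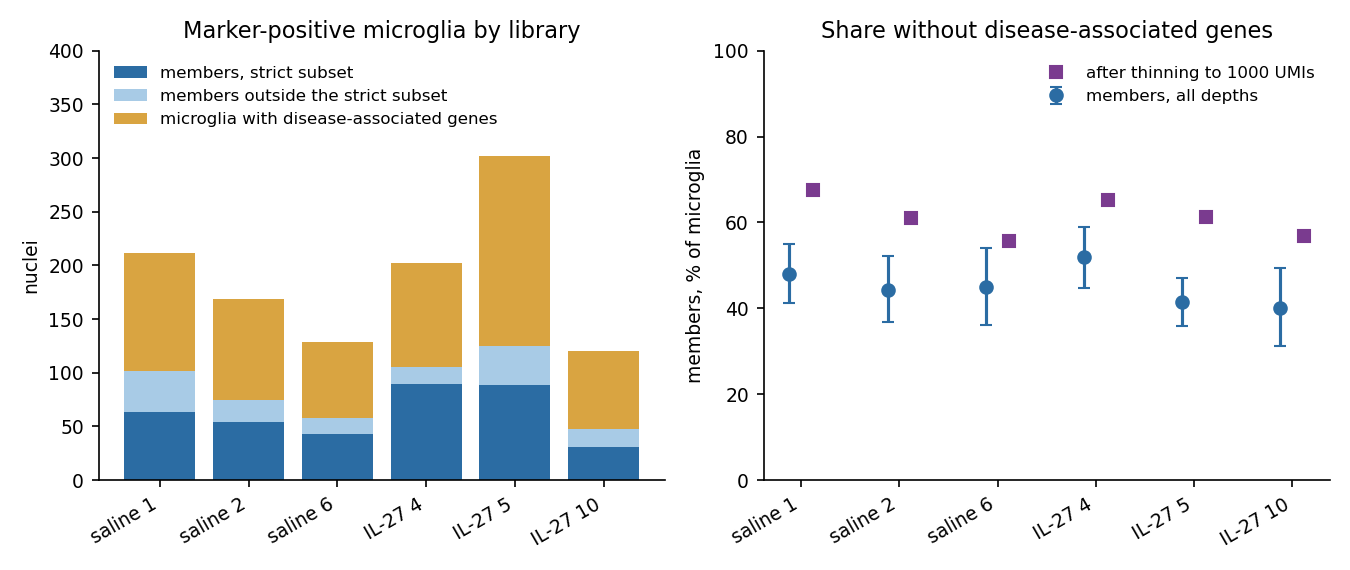
Left, number of nuclei per library that met the microglial terms, split into members in and outside the strict subset (defined with the marker check) and microglia with disease-associated genes. Right, members as % of microglia with 95% exact intervals (circles) and after thinning to 1000 UMIs (squares); the circles lie between 40% and 52.0% and the squares between 55.7% and 67.6%, and within each range the saline and IL-27 libraries overlap.

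The members were chosen by the measured UMIs of these marker genes, of the 9 disease-associated genes and of the 5 neuronal genes, so the values of these genes are a description. Signalling and cytoskeletal genes of the haematopoietic lineage were found most often. The adaptor gene Fyb (ENSMUSG00000022148, chr15:6522853-6663313, + strand) had a UMI in 82.1% of members, 84.5% of the comparison population and 1.51% of all other nuclei, and the antisense gene Gm2245 overlaps it by 49963 bases. Inpp5d, the SHIP1 lipid phosphatase (ENSMUSG00000026288, chr1:87620312-87720507, + strand), had a UMI in 78.2% of members, 85.3% of the comparison population and 1.45% of all other nuclei. Dock8, a guanine nucleotide exchange factor (ENSMUSG00000052085, chr19:24999534-25202432, + strand), had one in 77.6% of members, 80.7% of the comparison population and 1.53% of all other nuclei. The lymphoid and myeloid transcription factor gene Ikzf1 had a UMI in 66.3% of members, 68.9% of the comparison population and 0.975% of all other nuclei. These 4 genes were more frequent in the comparison population, the deeper of both, than in the members. Coordinates are those of GENCODE M21 on GRCm38, which lists 99.6% of the gene IDs.

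The receptors that define surveying microglia were next. The fractalkine receptor Cx3cr1 (ENSMUSG00000052336, chr9:119901616-120069879, - strand) was detected in 63.5% of members, 55.4% of the comparison population and 8.41% of all other nuclei. Its annotated body overlaps Gorasp1 by 12309, Csrnp1 by 13496 and Xirp1 by 9844 bases on the same strand, where strand cannot separate reads. Csf1r, the receptor for CSF1 and IL-34, was detected in 53.2% of members, 52.0% of the comparison population and 1.54% of all other nuclei. The ADP receptor P2ry12 (ENSMUSG00000036353, chr3:59216272-59262871, - strand) was found in 48.0% of members, 36.6% of the comparison population and 22.0% of all other nuclei. Its ratio of members to all other nuclei was the lowest of the 10 genes. The P2ry12 gene body lies whole within that of Med12l on the opposite strand, so reads of the 2 genes can be told apart only by strand. Tmem119, a microglial surface protein gene, was detected in 5.85% of members, 4.19% of the comparison population and 0.209% of all other nuclei. Of the complement C1q chains, C1qa had a UMI in 41.7% of members, 47.0% of the comparison population and 4.15% of all other nuclei, and C1qb in 42.5% of members, 50.1% of the comparison population and 3.88% of all other nuclei.

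**Figure D2:**
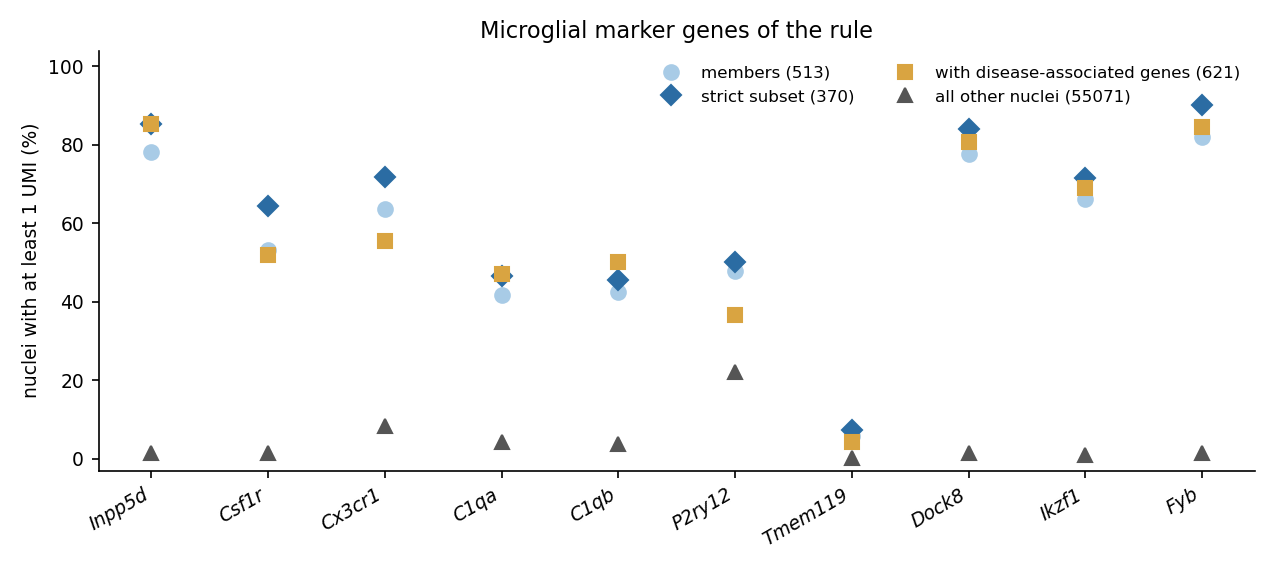
Share of nuclei with at least 1 UMI (%) for the 10 marker genes of the rule, in members, the strict subset, microglia with disease-associated genes and all other nuclei. All other nuclei lie under 10% for 9 genes and at 22.0% for P2ry12, and P2ry12 reaches 50.3% in the strict subset against 36.6% in microglia with disease-associated genes.

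The promoters of the 3 marker genes that gave the members most UMIs and have an entry in the RefSeq promoter table (GRCm38.p6) are shown because these genes chose the members and PU.1, the macrophage lineage factor, binds near many genes of this lineage. Each window runs from 250 bases before to 50 bases after an annotated start, 5′ to 3′ on the gene strand, and capitals mark GAGGAA, the core of the PU box, or its reverse complement TTCCTC. The Fyb window is at an annotated start inside the gene body given above, not at the 5′ end of that body.
Fyb, chr15:6579597-6579896, + strand: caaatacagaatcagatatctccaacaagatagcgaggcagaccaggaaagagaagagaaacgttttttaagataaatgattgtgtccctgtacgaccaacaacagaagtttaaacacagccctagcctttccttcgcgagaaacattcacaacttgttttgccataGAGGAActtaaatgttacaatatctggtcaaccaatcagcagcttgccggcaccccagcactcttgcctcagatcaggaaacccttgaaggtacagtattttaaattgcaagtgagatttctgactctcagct
Inpp5d, chr1:87620062-87620361, + strand: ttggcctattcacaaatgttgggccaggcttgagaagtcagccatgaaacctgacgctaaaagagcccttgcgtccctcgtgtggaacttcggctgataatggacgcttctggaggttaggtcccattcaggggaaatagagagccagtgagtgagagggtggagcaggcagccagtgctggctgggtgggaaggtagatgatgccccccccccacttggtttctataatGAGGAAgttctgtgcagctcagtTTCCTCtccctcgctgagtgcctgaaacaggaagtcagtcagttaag
Dock8, chr19:24999279-24999578, + strand: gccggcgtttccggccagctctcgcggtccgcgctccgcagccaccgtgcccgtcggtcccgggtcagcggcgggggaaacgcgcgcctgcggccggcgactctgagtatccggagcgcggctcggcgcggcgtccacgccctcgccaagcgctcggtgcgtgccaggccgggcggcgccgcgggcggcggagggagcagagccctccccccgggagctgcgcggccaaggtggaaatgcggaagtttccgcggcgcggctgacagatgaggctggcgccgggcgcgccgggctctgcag
The letters occurred in 3 of the 8 windows found for 7 of the 10 marker genes (Fyb, Inpp5d and C1qb), against 28.3% of all 32851 promoter windows of the same length, and not in the Dock8 window, which describes these letters only.

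The label was checked against markers of other retinal cells, with the limit that the rule had already used the 10 microglial markers on the other side of that count. In 112 of 513 members, UMIs of marker genes of another retinal cell type outnumbered those of the 10 microglial markers. Rod markers led in 54 of these nuclei, Muller markers in 25, bipolar markers in 11, cone markers in 8, amacrine markers in 7, horizontal and endothelial markers in 3 each and ganglion cell markers in 1. None of the 6 marker genes known for tissue macrophages rather than leukocytes in general (Csf1r, Cx3cr1, P2ry12, Tmem119, C1qa and C1qb) had a UMI in 39 members. A further check found UMIs of T, NK or B cell genes in 33 members. Among the 10 with at least 2 T or NK genes, 6 were in saline 1, where the T cell adaptor gene Skap1 lay at 219 CPM against 0 to 117 CPM in the other libraries. Scrublet placed 37 members among the 8% of nuclei with the highest doublet scores of their library, and these were kept in the main sums.

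A strict subset of 370 members was therefore set after the values were seen: no more UMIs of other retinal markers than of the 10 microglial markers, at least 1 UMI of these 6 genes and no UMI of a lymphocyte gene. It held 63, 54 and 43 in saline 1, 2 and 6 and 90, 89 and 31 in IL-27 4, 5 and 10, which is 61.8%, 72% and 74.1% in saline 1, 2 and 6 and 85.7%, 71.2% and 64.6% in IL-27 4, 5 and 10. Rod marker UMIs remained in 83.2% of its nuclei, against 91.5% of all other nuclei and 84.9% of the comparison population. Their number went from 433 of the members to 308 of the strict subset. The summed rod marker level was 1946 ± 772 CPM in all members and 1131 ± 350.0 CPM in the strict subset (SD, n = 6 libraries). Monocytes were not excluded by the strict terms, so the subset may hold monocyte-derived cells beside microglia. A UMI of the monocyte genes Ccr2, Ly6c2, Plac8 or Chil3 was present in 141 of its 370 nuclei (38.1%). That share was 25.8% in the comparison population and 1.61% in all other nuclei. Just inside the rule, 92 members had exactly 3 marker genes, of which 65.2% were led by another cell type, and of 531 nuclei with 2, just outside the rule, 94.7% were. Both shares are scored against UMIs of the same 10 markers, so they rise by construction as fewer markers are present.

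Genes that the rule did not use gave the nuclei of the strict subset a myeloid profile. Ptprc, the pan-leukocyte phosphatase CD45, lay at 1564, 1659 and 1522 CPM in saline 1, 2 and 6 and at 2097, 1624 and 1305 CPM in IL-27 4, 5 and 10 and averaged 14.6 CPM in all other nuclei. Ly86, a Toll-like receptor co-receptor gene, lay at 1778, 1519 and 1286 CPM in saline 1, 2 and 6 and at 1487, 1799 and 1291 CPM in IL-27 4, 5 and 10, against 8.45 CPM. Ctss, the lysosomal protease cathepsin S, lay at 1399, 1568 and 1416 CPM in saline 1, 2 and 6 and at 1339.6, 1499 and 2086 CPM in IL-27 4, 5 and 10, against 19.9 CPM. Each varied by less than 2-fold among libraries. Of 24 myeloid lineage genes past the count filter, 13 had a positive and 11 a negative log2FC for IL-27, and the groups overlapped for each of them. Gm2245, the gene antisense to Fyb, was among the 10 genes outside the rule with the largest excess over all other nuclei, at 1069 CPM on average. Its body lies whole within that of Fyb, a marker of the rule, so its excess is not independent of the choice of nuclei.

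Next, genes outside the rule were compared between the strict subset and 450 nuclei of the comparison population that met the same strict terms. The absence of 9 disease-associated genes chose one side, so this is a description with no test, given as the mean over 6 libraries of the difference in log2(CPM + 10). Most homeostatic genes lay on one side: of 18 genes of at least 20 CPM, 16 were higher in the strict subset, with a median difference of 0.27, against -0.05 over all 8398 genes. Their summed level was 10149 ± 343 CPM in the strict subset and 8636 ± 672 CPM in the comparison population, higher in 6 of 6 libraries. Myeloid lineage genes lay on the same side, with 18 higher and 7 lower of 25 and a median of 0.21. The sum of these was 16201 ± 703 CPM against 13842 ± 525 CPM, also higher in 6 of 6 libraries. The shift was thus not particular to homeostatic genes. For all members against the whole comparison population the contrast of homeostatic genes was smaller, with 11 of 17 genes higher and a median of 0.09. The summed level was then 7182 ± 1065 CPM against 7049.9 ± 733 CPM, higher in 4 of 6 libraries.

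Siglech, a sialic acid binding lectin gene of microglia (ENSMUSG00000051504, chr7:55768178-55778925, + strand), lay at 264, 149 and 307 CPM in saline 1, 2 and 6 and at 321, 232 and 298 CPM in IL-27 4, 5 and 10 in the strict subset. In the comparison population it was at 124, 59.99, 62.1, 65.2, 91.1 and 180.4 CPM in the same order. Every library had more Siglech in the subset, a mean difference of 1.41. Other homeostatic genes on that side were Olfml3, an extracellular matrix protein gene (1.08), the lysophosphatidylserine receptor gene Gpr34 (0.60) and the transporter gene Slco2b1 (0.48), each higher in 6 of 6 libraries. Fcrls, an Fc receptor-like scavenger gene, lay on the other side at -0.38, higher in the subset in 2 libraries.

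Antigen presentation genes were also higher in the strict subset, 12 of 13 with a median difference of 0.46. For all members against the whole comparison population, 10 of 13 were higher, with a median of 0.11. Cd74, the invariant chain of class II molecules, lay at 286, 272 and 330.3 CPM in saline 1, 2 and 6 and at 283, 299.8 and 298 CPM in IL-27 4, 5 and 10 in the strict subset. In the comparison population it lay at 134, 273, 202, 120.3, 76.9 and 48.6 CPM. The subset was higher in 5 of 6 libraries, a difference of 1.19. In the comparison population every IL-27 library lay below every saline library, while in the subset the groups overlapped. The IL-27 effect on Cd74 was more positive in the subset by 1.23 (edgeR SE 0.37, unadjusted p 0.00256, adjusted p 0.999). The class II chain gene H2-Eb1 differed by 1.20 and was higher in all 6. Its IL-27 effect was more positive in the subset by 1.77 (edgeR SE 0.44, unadjusted p 4.36e-04, adjusted p 0.999). In all members these effects were called only with no filter on low counts (adjusted p 0.00357 for Cd74 and 3.39e-04 for H2-Eb1) and, for H2-Eb1, without saline 6 (adjusted p 0.0427). Interferon response genes were higher in the strict subset for 33 of 42, with a median of 0.23. For all members, 25 were higher and 18 lower of 43, with a median of 0.08 and a summed level higher in 4 of 6 libraries. Ifi204, an interferon-inducible DNA sensor gene, lay at 721, 982 and 672 CPM in saline 1, 2 and 6 and at 986, 707 and 1050.0 CPM in IL-27 4, 5 and 10 in the subset and averaged 567 ± 196 CPM in the comparison population (SD, n = 6), a difference of 0.63 in favour of the subset in 6 libraries.

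Among markers of infiltrating monocytes, 2 of 3 genes of at least 20 CPM had higher means in the strict subset. Ccr2, the chemokine receptor that brings monocytes into tissue (ENSMUSG00000049103, chr9:124101950-124113557, + strand), lay at 378, 446 and 295 CPM in saline 1, 2 and 6 and at 359, 515 and 269.6 CPM in IL-27 4, 5 and 10 in the strict subset. The comparison population had 115, 311, 85.4, 256, 119.6 and 277 CPM. It was higher in the subset in 5 of 6 libraries, a difference of 1.05, and stood at 1.98 CPM in all other nuclei. Plac8, another monocyte gene, was higher in the subset in 6 of 6, by 1.11. The summed level of the 4 monocyte genes was 366 to 685 CPM in the subset and 93.2 to 442 CPM in the comparison population. The defining monocyte gene Ly6c2 averaged 25.1 CPM in the subset, with 0 CPM in saline 1 and 79.2 CPM in IL-27 5, while the comparison population averaged 26.2 ± 25.1 CPM (SD, n = 6), a difference of -0.06 with 3 of 6 libraries higher in the subset. Chil3 was at 0 in 4 libraries of the subset and in 5 of the comparison population. Across single libraries, saline 2 had the highest Ccr2 of the comparison population. The part of monocyte-derived cells in the antigen presentation and interferon values was not tested.

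Genes of the disease-associated state that the rule did not use were lower in the strict subset for 18 of 22, with a median of -0.42. They were lower but not absent. Their summed level was 9545 ± 1966 CPM in the subset and 11754 ± 1959 CPM in the comparison population, higher in the subset in 1 of 6 libraries. At least 3 genes of the list had a UMI in 97.8% of the subset. This share was 97.9% in the whole comparison population and 77.4% in all other nuclei. Fabp5, a fatty acid binding protein gene (ENSMUSG00000027533, chr3:10012548-10016607, + strand), lay at 57.1, 57.8 and 47.2 CPM in saline 1, 2 and 6 and at 32.7, 62.2 and 85.1 CPM in IL-27 4, 5 and 10 in the subset. The comparison population had 297, 185, 225, 261, 444 and 153 CPM. No library of the subset reached any of the other population, and the difference was -1.98. Lgals3, which encodes galectin-3, lay at 49.98, 49.5 and 118 CPM in saline 1, 2 and 6 and at 59.9, 39.6 and 99.3 CPM in IL-27 4, 5 and 10 in the subset. The other population had 172, 185, 148, 95.2, 416 and 194 CPM, a difference of -1.37 with 0 of 6 libraries higher in the subset. The iron storage gene Fth1 (-0.56), the lysosomal protease genes Ctsd (-0.70) and Ctsb (-0.57) and the tetraspanin gene Cd9 (-0.68) had lower means too, with 0, 1, 1 and 2 of 6 libraries higher in the subset.

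The group was not uniform. Apoe, the lipid carrier gene often counted with the disease-associated state, lay at 3613, 4862 and 5025 CPM in saline 1, 2 and 6 and at 3752, 3095 and 5065 CPM in IL-27 4, 5 and 10 in the strict subset. The comparison population had 3267, 4363, 5483, 3769, 3725 and 4710.2 CPM, a difference of 0.00. Trem2, the lipid receptor upstream of that state, differed by -0.10, and the phagocytic receptor tyrosine kinase gene Axl by 0.46, higher in the subset in 6 of 6 libraries. Lysosomal genes were lower for 19 of 24, with a median of -0.25, among them Lipa, the lysosomal acid lipase (-0.85), while the cathepsin gene Ctss was higher in the subset in 6 of 6 libraries (0.43). Cell cycle genes other than Top2a were lower for 10 of 10, with a median of -2.09. Their summed level was 91.9 ± 17.5 CPM in the strict subset and 673 ± 357 CPM in the comparison population. The kinetochore gene Knl1 lay at 14.3, 24.8 and 23.6 CPM in saline 1, 2 and 6 and at 5.45, 11.3 and 0 CPM in IL-27 4, 5 and 10 in the subset. In the other population it lay at 129, 49.1, 93.2, 105.3, 54.1 and 180.4 CPM. Since Top2a and Mrc1 are in the rule, cycling nuclei and perivascular macrophages were placed in the comparison population by the rule itself.

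**Figure D3:**
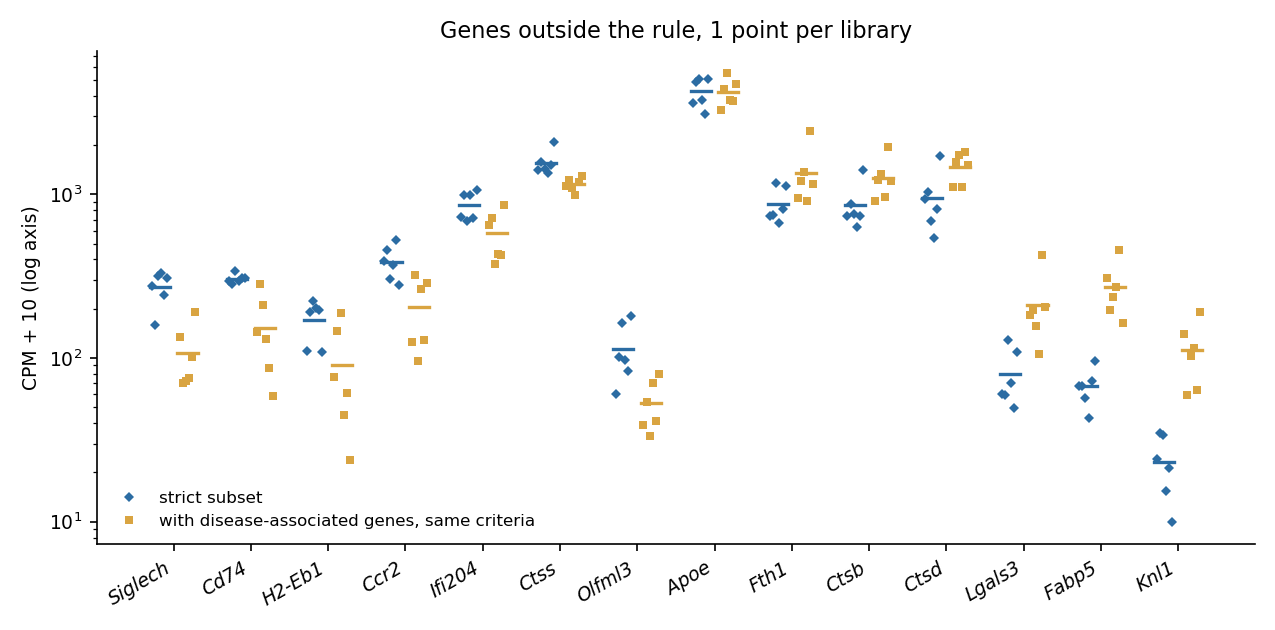
Level of 14 genes outside the rule as CPM + 10 on a log axis, 1 point per library (n = 6) and a line at the mean, in the strict subset (diamonds) and in microglia with disease-associated genes under the same criteria (squares). Siglech lies higher in the subset in every library, Apoe is level, and Fabp5 lies lower in every library.

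No gene passed the test of IL-27 against saline in the members. Of 5491 genes tested with edgeR (quasi-likelihood, counts summed per library, Benjamini-Hochberg adjustment), 0 (0%) were called higher and 0 (0%) lower at an adjusted p of 0.05, the lowest adjusted p being 0.407. At an unadjusted p under 0.05, 106 genes (1.93%) lay higher and 223 (4.06%) lower in IL-27 libraries, and the groups did not overlap for 278 (5.06%) and 337 (6.14%). DESeq2 called 1 gene (Kcnip4) higher and 10 lower. The strict subset gave 0 of 3190, where an unadjusted p under 0.05 was reached by 53 genes (1.66%) with higher and 56 (1.76%) with lower levels for IL-27, and 121 (3.79%) and 140 (4.39%) without overlap.

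Of all 1308113 UMIs of the members, 776834 were in the strict subset. Some genes with the smallest p had most of their UMIs in the strict subset and others had most outside it. Among the first were both a membrane and a cytosolic subunit of the phagocyte NADPH oxidase. Cybb, the catalytic subunit gp91phox (ENSMUSG00000015340, chrX:9435252-9487771, - strand), lay at 258, 248 and 316 CPM in saline 1, 2 and 6 and at 471, 498 and 416 CPM in IL-27 4, 5 and 10 in the members. In the strict subset it lay at 378, 429 and 401 CPM in saline 1, 2 and 6 and at 561, 605 and 681 CPM in IL-27 4, 5 and 10. The IL-27 libraries lay above the saline libraries in both sets, with a mean of 403 ± 25.5 CPM for saline against 616 ± 60.8 CPM for IL-27 in the strict subset (SD, n = 3; edgeR log2FC 0.60, SE 0.21, unadjusted p 0.00779, adjusted p 0.996). Ncf1, the cytosolic subunit p47phox, lay at 236, 182 and 248 CPM in saline 1, 2 and 6 and at 272, 322 and 411 CPM in IL-27 4, 5 and 10 in the strict subset, where again the groups did not overlap (edgeR log2FC 0.56, SE 0.26, unadjusted p 0.0395, adjusted p 0.996). Tbc1d1, a Rab GTPase activating protein gene, lay at 186, 165 and 142 CPM in saline 1, 2 and 6 and at 327, 260.2 and 312 CPM in IL-27 4, 5 and 10, without overlap (edgeR log2FC 0.84, SE 0.27, unadjusted p 0.00385, adjusted p 0.996). Lipa lay at 35.7, 82.5 and 35.4 CPM in saline 1, 2 and 6 and at 81.7, 169.7 and 114 CPM in IL-27 4, 5 and 10, where saline 2 just passed IL-27 4 (edgeR log2FC 1.23, SE 0.45, unadjusted p 0.0104, adjusted p 0.996). Outside the strict subset were 18.0% of Cybb, 15.5% of Ncf1, 21.8% of Tbc1d1 and 13.4% of Lipa UMIs.

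All 6 genes with the smallest p on the lower side were genes with most of their UMIs in members outside the strict subset: Opn1mw, the cone opsin (86.7%), Pcdh15, a photoreceptor protocadherin (95.4%), Gulp1 (91.8%), Rgs20 (93.2%), Egflam, the photoreceptor ribbon synapse protein pikachurin (88.7%), and Prkd1 (92.9%). Pcdh15 lay at 918, 1349 and 1917 CPM in saline 1, 2 and 6 and at 218, 403 and 599 CPM in IL-27 4, 5 and 10 in all members (edgeR log2FC -1.78, SE 0.36, unadjusted p 3.75e-04, adjusted p 0.407). In the strict subset it lay at 42.8, 189.9 and 82.6 CPM in saline 1, 2 and 6 and at 38.1, 45.3 and 0 CPM in IL-27 4, 5 and 10, below the count filter. Rgs20 lay at 137, 243 and 277 CPM in saline 1, 2 and 6 and at 37.8, 74.2 and 80.3 CPM in IL-27 4, 5 and 10 in all members. Strict nuclei gave 28.6, 33.0 and 47.2 CPM in saline 1, 2 and 6 and 0, 0 and 0 CPM in IL-27 4, 5 and 10. The same held on the higher side for Kcnip4, a potassium channel interacting protein gene (79.1% outside the subset), and for Grik1, a kainate receptor gene of OFF bipolar cells (85.5%), which lay at 31.3, 49.5 and 13.2 CPM in saline 1, 2 and 6 and at 357, 53.0 and 825 CPM in IL-27 4, 5 and 10 in all members. Grik1 in the strict subset lay at 42.8, 57.8 and 23.6 CPM in saline 1, 2 and 6 and at 38.1, 56.6 and 28.4 CPM in IL-27 4, 5 and 10. Summed cone markers were 524, 528 and 797 CPM in saline 1, 2 and 6 and 151, 247 and 189.9 CPM in IL-27 4, 5 and 10 in the members, all IL-27 libraries below all saline libraries. The strict subset held 149.9, 157 and 319 CPM in saline 1, 2 and 6 and 158, 50.9 and 114 CPM in IL-27 4, 5 and 10 of the cone markers, with overlap, and its definition itself limits cone, bipolar and other retinal marker UMIs. Summed bipolar markers lay the other way in the members, at 363, 363 and 527 CPM in saline 1, 2 and 6 and 546, 558 and 1293 CPM in IL-27 4, 5 and 10, all IL-27 libraries above all saline libraries. In the strict subset the bipolar sum was 243, 198 and 389 CPM in saline 1, 2 and 6 and 234, 362 and 355 CPM in IL-27 4, 5 and 10, also with overlap. Endothelial markers summed to 258, 231 and 263 CPM in saline 1, 2 and 6 and 118, 229.7 and 124 CPM in IL-27 4, 5 and 10 in the members, all IL-27 libraries below all saline libraries, the lowest saline value being 231 and the highest IL-27 value 229.7 CPM. Rod marker genes were negative for 10 of 10 tested (median -0.44) and Muller marker genes for 6 of 6 (median -0.30), and their sums overlapped between the groups. The part of these other cells in the IL-27 values of the members was not tested.

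**Figure D4:**
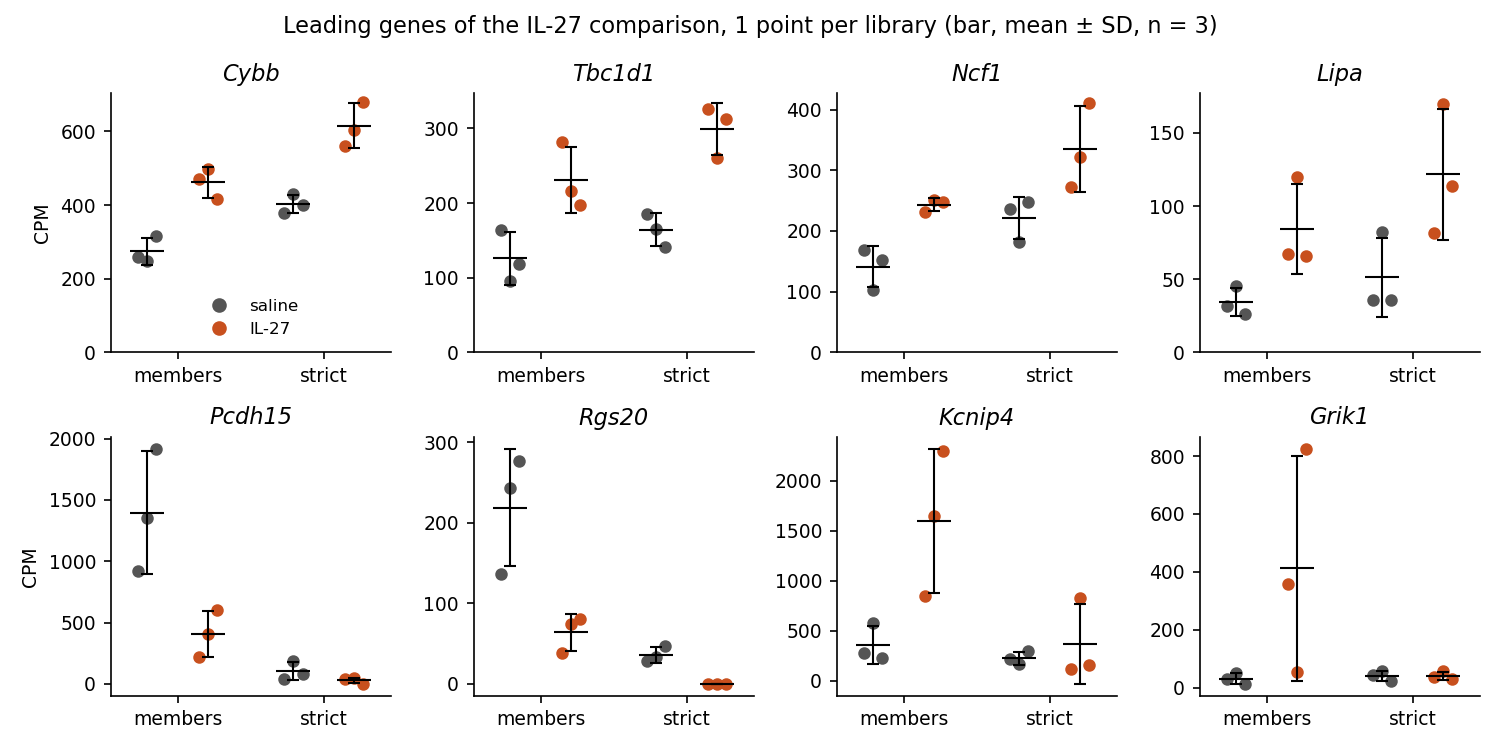
CPM of 8 genes with small unadjusted p in the IL-27 comparison, 1 point per library, with the mean ± SD (n = 3) in saline and IL-27 libraries, in all members (left of each panel) and in the strict subset (right). Cybb, Tbc1d1 and Ncf1 show all IL-27 points above the saline points in both sets, and Pcdh15, Rgs20, Kcnip4 and Grik1 are low in the strict subset.

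Components of IL-27 signalling were examined first among the gene lists. The receptor gene Il27ra had 1 UMI in 513 members, in saline 6 and outside the strict subset. Its partner Il6st, which encodes gp130, lay at 107, 149 and 35.4 CPM in saline 1, 2 and 6 and at 147, 175 and 128 CPM in IL-27 4, 5 and 10 in the strict subset, with overlap between groups (edgeR log2FC 0.59, SE 0.35, unadjusted p 0.107, adjusted p 0.996). Stat3, a transcription factor downstream of gp130, lay at 243, 231 and 201 CPM in saline 1, 2 and 6 and at 245, 289 and 199 CPM in IL-27 4, 5 and 10 in the strict subset, with overlap (log2FC 0.15, unadjusted p 0.561). Of the list's 10 tested genes, 10 had a positive and 0 a negative log2FC, with a median of 0.21, against a median of 0.01 over all genes tested, of which 1641 of 3190 were positive, and 0 of the list were called.

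Interferon response genes gave no call and mostly positive values. In the strict subset, of 25 tested genes, 20 had a positive and 5 a negative log2FC, with a median of 0.09. At an unadjusted p under 0.05, 4 lay higher, and the groups did not overlap for 1, where the shares over all genes tested in the subset were 1.66% and 3.79%. Ifi35, an interferon-induced gene, lay at 57.1, 66.0 and 70.8 CPM in saline 1, 2 and 6 and at 142, 84.9 and 227 CPM in IL-27 4, 5 and 10, without overlap (edgeR log2FC 1.11, SE 0.41, unadjusted p 0.0124, adjusted p 0.996). The antiviral gene Rsad2 (viperin) lay at 35.7, 140.3 and 70.8 CPM in saline 1, 2 and 6 and at 152, 119 and 355 CPM in IL-27 4, 5 and 10, with IL-27 10 highest and IL-27 5 below saline 2 (edgeR log2FC 1.17, SE 0.43, unadjusted p 0.0116, adjusted p 0.996). Stat2, a factor of type I interferon signalling, lay at 521, 462 and 224 CPM in saline 1, 2 and 6 and at 583, 520.5 and 709 CPM in IL-27 4, 5 and 10 (log2FC 0.52, unadjusted p 0.0412), with overlap. In all members 31 of 35 were positive, with a median of 0.28, and the summed level was 7010.3, 6704 and 4946 CPM in saline 1, 2 and 6 and 8503, 7134 and 7930.3 CPM in IL-27 4, 5 and 10, without overlap. In the strict subset the summed level was 8568, 11276 and 6677 CPM in saline 1, 2 and 6 and 10009, 8548 and 11890.4 CPM in IL-27 4, 5 and 10, with overlap.

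Complement genes outside the rule were few. Cfb, complement factor B of the alternative pathway, lay at 57.1, 82.5 and 82.6 CPM in saline 1, 2 and 6 and at 109, 158 and 99.3 CPM in IL-27 4, 5 and 10 in the strict subset, without overlap (edgeR log2FC 0.80, SE 0.38, unadjusted p 0.0453, adjusted p 0.996). C3ar1, the C3a receptor gene, lay at 114, 57.8 and 224 CPM in saline 1, 2 and 6 and at 174, 221 and 170.3 CPM in IL-27 4, 5 and 10, with overlap (log2FC 0.63, unadjusted p 0.0851). C1qc lay at 343, 289 and 366 CPM in saline 1, 2 and 6 and at 283, 345 and 525 CPM in IL-27 4, 5 and 10 and had a log2FC of 0.15. The list's summed level was 1164, 892 and 1203 CPM in saline 1, 2 and 6 and 1263, 1363 and 1419 CPM in IL-27 4, 5 and 10, without overlap. That sum leaves out C1qa and C1qb, which helped to choose the nuclei and overlapped between the groups in the subset. Of 5 tested genes, 5 had a positive and 0 a negative log2FC, with a median of 0.45. At an unadjusted p under 0.05 in edgeR, 1 lay higher, and the groups did not overlap for 1. Over all genes tested in the subset these shares were 1.66% and 3.79%.

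Antigen presentation genes gave no call. H2-K1, a class I heavy chain gene, lay at 735, 652 and 684 CPM in saline 1, 2 and 6 and at 653, 1047 and 738 CPM in IL-27 4, 5 and 10 in the strict subset, where IL-27 5 stood above the rest (log2FC 0.25, unadjusted p 0.231). Cd74 had a log2FC of 0.00 and H2-Eb1 of 0.10, and of 10 tested genes, 7 had a positive and 3 a negative log2FC, with a median of 0.06, against 0.29 over 12 in all members. Cytokine and chemokine genes had a median of 0.04 over 10 in the subset and 0.29 in the members. Il18, a cytokine released after inflammasome activation, lay at 85.7, 116 and 47.2 CPM in saline 1, 2 and 6 and at 92.6, 164 and 142 CPM in IL-27 4, 5 and 10, with overlap (log2FC 0.61, unadjusted p 0.12). Il10ra, the receptor chain for IL-10, lay at 464, 471 and 401 CPM in saline 1, 2 and 6 and at 452, 554 and 397 CPM in IL-27 4, 5 and 10, with overlap. Il6ra, the IL-6 receptor chain, lay at 278, 396 and 342 CPM in saline 1, 2 and 6 and at 452, 436 and 227 CPM in IL-27 4, 5 and 10, also with overlap. For Il6ra and Il10ra, IL-27 10 was the lowest library.

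Homeostatic genes gave positive medians in all members and a median near that of all genes in the strict subset. In all members, of 16 tested genes, 13 had a positive and 3 a negative log2FC, with a median of 0.23, against 0.02 over all genes, and in the strict subset 9 of 16 were positive with a median of 0.02. Their summed level in the subset was 10160.5, 9815 and 10499 CPM in saline 1, 2 and 6 and 10608, 9793 and 10018 CPM in IL-27 4, 5 and 10. The general myeloid list did likewise, with a median of 0.15 in the members and 0.01 in the subset. Sall1, the transcription factor that maintains microglial identity, lay at 92.8, 82.5 and 70.8 CPM in saline 1, 2 and 6 and at 131, 102 and 170.3 CPM in IL-27 4, 5 and 10 in the subset, without overlap (edgeR log2FC 0.62, SE 0.36, unadjusted p 0.102, adjusted p 0.996). Slco2b1 lay at 357, 231 and 248 CPM in saline 1, 2 and 6 and at 387, 368 and 383 CPM in IL-27 4, 5 and 10, also without overlap (edgeR log2FC 0.43, SE 0.24, unadjusted p 0.0849, adjusted p 0.996). Cx3cr1, Csf1r, P2ry12 and Tmem119 helped to choose the nuclei, so their values are a description and no test of IL-27. Their groups overlapped in the subset, with Cx3cr1 at 783 ± 46.4 CPM for saline against 808 ± 54.1 CPM for IL-27 (SD, n = 3). In all members Cx3cr1 lay at 508, 528 and 481 CPM in saline 1, 2 and 6. Its IL-27 values there were 668, 534 and 569.6 CPM in libraries 4, 5 and 10, all above saline. Csf1r, P2ry12 and Tmem119 overlapped between groups in all members too.

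Genes of the disease-associated state outside the rule had a median of -0.15 over 16 tested in the strict subset and 0.04 in the members. Lilrb4a, an inhibitory receptor gene, lay at 99.96, 198 and 142 CPM in saline 1, 2 and 6 and at 185, 169.7 and 624 CPM in IL-27 4, 5 and 10, where IL-27 10 stood far above the rest and the others overlapped (edgeR log2FC 0.96, SE 0.40, unadjusted p 0.0246, adjusted p 0.996). Apoe had a log2FC of -0.18 and Ctsd of 0.12 in the subset (unadjusted p 0.332 and 0.68). Lysosomal genes gave 17 positive and 5 negative values of 22, with a median of 0.10.

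No cytosolic ribosomal protein gene passed the test, and most had negative values in the strict subset. Of 72 tested genes, 13 had a positive and 59 a negative log2FC, with a median of -0.25. Among the negative ones, 9 were at an unadjusted p under 0.05 and 6 were without overlap. Over all genes tested in the subset, 1549 of 3190 were negative, 1.76% lay lower at an unadjusted p under 0.05 and 4.39% lay lower without overlap. Rps24 lay at 349.9, 297 and 472 CPM in saline 1, 2 and 6 and at 207, 204 and 199 CPM in IL-27 4, 5 and 10 (edgeR log2FC -0.84, SE 0.25, unadjusted p 0.00283, adjusted p 0.996). Rpl7a lay at 129, 107 and 153 CPM in saline 1, 2 and 6 and at 49.0, 62.2 and 56.8 CPM in IL-27 4, 5 and 10 (edgeR log2FC -1.18, SE 0.39, unadjusted p 0.0057, adjusted p 0.996), and for both genes the groups did not overlap. The summed level was 12395, 11738 and 17022 CPM in saline 1, 2 and 6 and 9966, 10082 and 14132 CPM in IL-27 4, 5 and 10, with overlap. Rod markers lay on the same side in the strict subset: 5 of 5 tested genes were negative, with a median of -0.32. Their summed level was 1064, 1370.3 and 1121 CPM in saline 1, 2 and 6 and 1144, 526 and 1561 CPM in IL-27 4, 5 and 10, with overlap, and their part in the ribosomal and respiratory chain values was not tested. In all members the ribosomal median was -0.05. Nucleus-encoded respiratory chain genes gave a median of -0.29 over 18 tested in the subset and -0.10 over 44 in the members. Atp5h, an ATP synthase subunit gene, lay at 136, 116 and 165 CPM in saline 1, 2 and 6 and at 49.0, 62.2 and 85.1 CPM in IL-27 4, 5 and 10, without overlap (edgeR log2FC -1.14, SE 0.38, unadjusted p 0.0061, adjusted p 0.996). The subunit gene Atp5c1 had higher values in the IL-27 group, at 99.96, 99.1 and 129.8 CPM in saline 1, 2 and 6 and at 152, 238 and 170.3 CPM in IL-27 4, 5 and 10 (edgeR log2FC 0.82, SE 0.31, unadjusted p 0.0151, adjusted p 0.996). Transcripts of the mitochondrial genome had a median of -0.07. Both lists were known from earlier results on all microglia of these libraries, so these values are not independent of those.

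**Figure D5:**
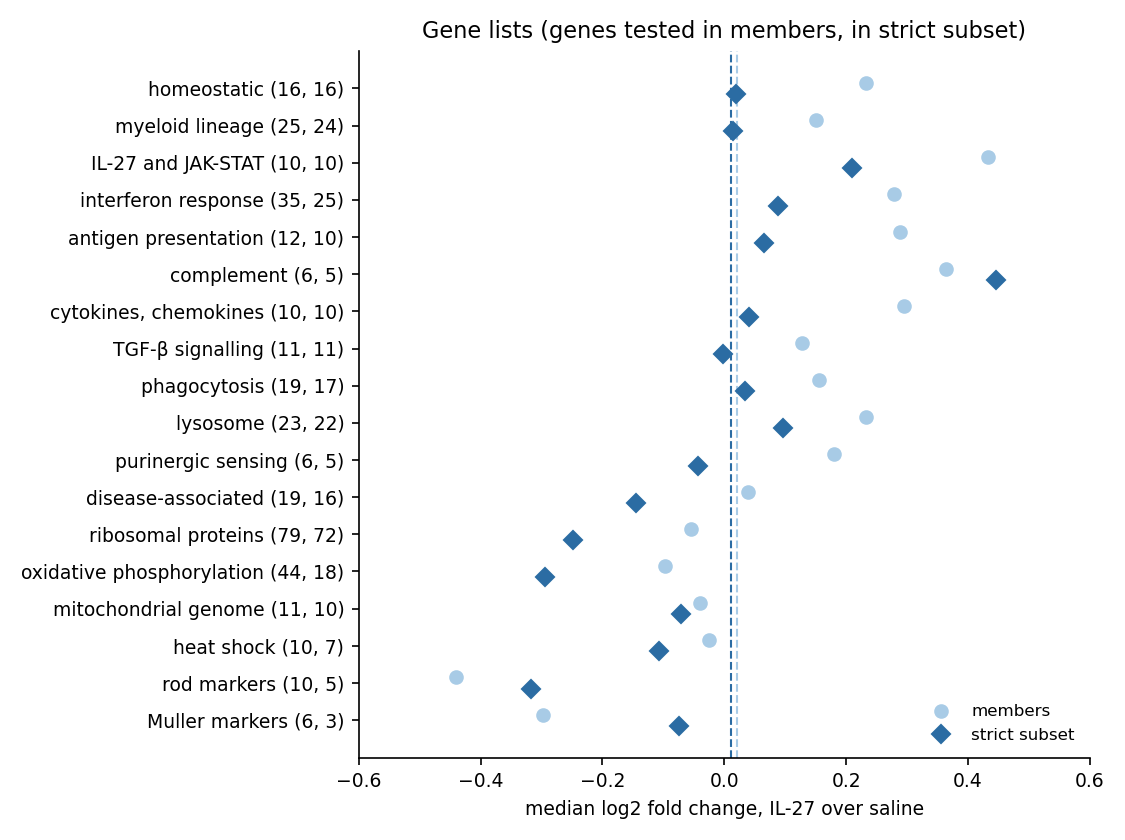
Median log2 fold change of IL-27 over saline for 18 gene lists in all members (circles) and in the strict subset (diamonds), with the number of genes tested in each beside the list and dashed lines at the medians of all genes tested. Most microglial lists lie to the right in all members and nearer to 0 in the strict subset. Among the 18 lists shown, complement has the highest median in the strict subset (0.45) and rod markers the lowest (-0.32).

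Genes of interest in microglia were also read out. Psap, which encodes the lysosomal and neurotrophic protein prosaposin, lay at 1249.5, 999 and 1286 CPM in saline 1, 2 and 6 and at 964, 1414 and 1405 CPM in IL-27 4, 5 and 10 in the strict subset, with overlap (edgeR log2FC 0.10, SE 0.19, unadjusted p 0.618, adjusted p 0.996). Ppia, which encodes cyclophilin A, lay at 299.9, 189.9 and 377 CPM in saline 1, 2 and 6 and at 218, 209 and 426 CPM in IL-27 4, 5 and 10 (edgeR log2FC -0.11, SE 0.30, unadjusted p 0.719, adjusted p 0.996). Bsg, the cyclophilin receptor gene basigin, lay at 236, 198 and 201 CPM in saline 1, 2 and 6 and at 142, 130.1 and 114 CPM in IL-27 4, 5 and 10, without overlap and lower for IL-27 (edgeR log2FC -0.69, SE 0.28, unadjusted p 0.0229, adjusted p 0.996). Trem2 had a log2FC of -0.16 and Tgfb1 of -0.36 in the subset (unadjusted p 0.574 and 0.341). Tnf lay at 0 to 42.6 CPM and Il1a at 0 to 23.6 CPM over the 6 libraries of the subset, a few UMIs each, and Nos2 and Ocm had no UMI in the members.

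Finally, the IL-27 effect was compared between the members and the comparison population in one edgeR model of both populations in each library. Of 6614 genes tested, 6 (0.0907%) had a more positive and 0 (0%) a more negative IL-27 effect in the members at an adjusted p of 0.05. By an unadjusted p under 0.05 these were 187 (2.83%) and 151 (2.28%). The 6 genes were Hs6st3, a heparan sulphate sulphotransferase gene, Pcsk6, a proprotein convertase gene, the neuronal adhesion gene Lsamp, the neuronal catenin gene Ctnna2, the synaptic gene Anks1b and the RNA-binding protein gene Rbms3. Between 93.5% and 98.1% of their member UMIs were in nuclei outside the strict subset. Few members carried them: a UMI was present in 12 (Pcsk6) to 157 (Lsamp) of the 513 members. Ctnna2 lay at 46.9, 540.4 and 85.6 CPM in saline 1, 2 and 6 and at 332, 456 and 1972 CPM in IL-27 4, 5 and 10 in the members, where IL-27 10 was highest. Its comparison population means were 279.8 CPM for saline and 124 CPM for IL-27. Lsamp means were 2637 and 2921 CPM in the members, and 1831 and 489 CPM in the comparison population, in that order. In the strict subset Ctnna2 lay at 7.14, 16.5 and 59.0 CPM in saline 1, 2 and 6 and at 5.45, 113 and 28.4 CPM in IL-27 4, 5 and 10. The same model restricted to strict nuclei of both populations, in which 3 of the 6 genes were too low to be tested, called 0 of 4570 genes (0%) in either direction, where 99 (2.17%) lay higher and 86 (1.88%) lower by an unadjusted p under 0.05. The model without IL-27 10 called 0 genes at an adjusted p of 0.05, while the differences of the same 6 genes lay between 2.04 (Lsamp) and 5.94 (Hs6st3), against 2.18 (Lsamp) to 6.64 (Pcsk6) with that library.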

How the data were processed

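The authors deposited filtered 10x count matrices (UMI counts per gene and nucleus) of 6 libraries, made from flash-frozen retinas with a nuclei isolation kit and 3′ chemistry. The file headers name Cell Ranger 8.0.1 and the submitters' processing notes 9.0.1 and Seurat 5.2.1; the genome build is not given in the sources used here. Counts of the nuclei chosen by the rule were summed per library. Libraries held 36678332 to 48260748 UMIs in all. edgeR 4.0.16 (R 4.3.3; filter at a minimum count of 10, TMM, quasi-likelihood test, Benjamini-Hochberg adjustment, threshold 0.05) compared IL-27 with saline, and a model with library, population and their interaction with treatment compared effects between populations. The 24 genes of the rule stayed in library sizes and out of the tests. The members and gene lists were chosen with earlier results of these data known.

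Members against the comparison population were described with a pseudocount of 10 CPM and no test. Genes named were those of the rule, the 6 with the smallest p in each direction where fewer than 5 passed, up to 5 per direction in the difference, the 3 highest and the 2 with the smallest p in each list, the 6 with the largest difference from the comparison population, and genes of interest to the study. Differences from the comparison population are given for the strict subset. The leading genes of that subset, Xist, Uty, Skap1, Ccr2, Plac8, Ly6c2, Chil3, Siglech, Sall1, Il27ra, Il6st, Stat2, Rsad2, Gpr34, Olfml3, Axl, Cd9, Fcrls, Slco2b1, Bsg, Atp5c1 and Rbms3 were added after their values were seen. Scrublet (scanpy 1.11.5, expected share 8%) served only as an alternative, as did DESeq2 1.42.0, other scalings and filters, leaving out each library, and a block on the libraries with Xist above 100 CPM. The scripts were tested on simulated data. Intervals are exact Clopper-Pearson at 95%. Promoter windows are from RefSeq. Some genes are not reported here.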

Additional observations from a re-analysis of the deposited data

Results flagged for a closer look

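The IL-27 effect differed between members and microglia with disease-associated genes for 6 genes in the edgeR model of both populations (Benjamini-Hochberg adjustment over 6614 genes). Hs6st3 had a difference of 6.25 (SE 0.74, adjusted p 0.00329). Pcsk6 had a difference of 6.64 (SE 0.90, adjusted p 0.00746). Lsamp had a difference of 2.18 (SE 0.31, adjusted p 0.00891). Ctnna2 had a difference of 3.40 (SE 0.52, adjusted p 0.0167). Anks1b had a difference of 2.67 (SE 0.45, adjusted p 0.0379). Rbms3 had a difference of 5.03 (SE 0.88, adjusted p 0.0477). Each value is the log2 fold change in members minus that in the comparison population. In the members, Hs6st3 lay at 141, 1143 and 26.3 CPM in saline 1, 2 and 6 and at 458, 477 and 2067 CPM in IL-27 4, 5 and 10, and at 463, 581, 188, 7.54, 12.4 and 32.5 CPM in the comparison population in the same order. Lsamp lay at 1684, 4753 and 1475 CPM in saline 1, 2 and 6 and at 2050.2, 1738 and 4973 CPM in IL-27 4, 5 and 10, and at 1536, 2426, 1531, 260.3, 455 and 752 CPM in the comparison population in the same order. Pcsk6, Anks1b and Rbms3 also had their highest member level in IL-27 10. In the comparison population Pcsk6 lay at 0, 2.07 and 0 CPM and Rbms3 at 0, 6.21 and 9.29 CPM in IL-27 4, 5 and 10. Both differences therefore rest on levels near 0 there, and their exact size is uncertain. Outside the strict subset were 98.1% of Hs6st3, 97.8% of Pcsk6, 96.4% of Lsamp, 95.1% of Ctnna2, 95.5% of Anks1b and 93.5% of Rbms3 UMIs of the members. Of 513 members, 32 had a UMI of Hs6st3, 12 of Pcsk6, 157 of Lsamp, 52 of Ctnna2, 50 of Anks1b and 28 of Rbms3. The member levels of these genes are therefore not levels of most members. The model without IL-27 10 called 0 genes, and the differences were then 5.94 for Hs6st3, 5.09 for Pcsk6, 2.04 for Lsamp, 3.11 for Ctnna2, 2.16 for Anks1b and 4.52 for Rbms3, with adjusted p between 0.0961 and 0.462. In strict nuclei Hs6st3, Pcsk6 and Rbms3 were under the count filter and not tested, and Lsamp, Ctnna2 and Anks1b had differences of 0.12, 0.49 and 1.06, each with an adjusted p of 0.999.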

How the results depend on the processing

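The shares kept their direction with doublets, the mitochondrial limit, thinning and at least 4 markers changed one at a time, except through single libraries: over the samples left out in turn, the IL-27 minus saline difference ran from -5.12 to 0.868 percentage points of microglia (0.172 without IL-27 replicate 5 and 0.868 without IL-27 replicate 10, against -1.36 with all) and from -0.0171 to 0.405 of all nuclei (-0.0171 without IL-27 replicate 5, against 0.163). Genes called for IL-27 against saline were 0 in the strict subset, with DESeq2 size factors or library totals in edgeR and at a filter of 20 counts, 11 with DESeq2's own test and 71 with no filter on low counts. They were 0 to 2 with a library left out (Cntnap2 without saline 1, Slit2 without IL-27 4, Grik1 and Arr3 without IL-27 5). Genes whose IL-27 effect differed between populations were 12 with DESeq2, 72 with no filter and 2 with the filter at 20 counts. Without Scrublet doublets they were 3: Hs6st3 and Ctnna2 of the 6 genes, and Cntnap2 with a more negative effect in the members. Without nuclei of outlying total they were 3 (Pcdh15, Dmd and Mir124a-1hg), all with a more negative effect in the members, and 0 of the 6 genes. They were 0 with at least 4 markers, without nuclei led by markers of other cells, in the strict subset and without nuclei with a rod UMI. A block on the libraries with Xist gave 9, with all 6 genes among them, and 0 in strict nuclei. With a library left out they ran from 0 to 28, namely 4 without saline 1, 28 without saline 2, 23 without saline 6, 2 without IL-27 4, 14 without IL-27 5 and 0 without IL-27 10. Signs changed for several single genes: Abca1 was at -0.0525 without nuclei with a rod UMI, the Lsamp difference was at -0.33 without nuclei led by other markers and the Anks1b difference was at -0.17 without outlying totals, and with strict nuclei and the block on Xist these were at -0.057 for Lsamp, -0.0085 for Ctnna2 and -0.38 for Anks1b; the cause was not tested. Values that passed no threshold also changed sign in some settings, among them the IL-27 log2FC of Tgfbr1 (-0.32 to 0.59), Stat3 (-0.19 to 0.18), Runx1 (-0.12 to 0.33) and Mef2c (-0.32 to 0.09). The strict subset, the rod UMI setting, the block on Xist and the unthinned share at 1000 UMIs were chosen after seeing the data. No paired analysis was possible because the groups share no replicate numbers. At this depth, 1 UMI in the members of a library stood for 3.53 to 7.30 CPM.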

Other observations

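Transcription factor genes of microglia were examined beyond the comparisons above, and 0 were called. Of 15 tested genes, 10 had a positive and 5 a negative log2FC, with a median of 0.05 in the strict subset. Mef2c, a factor of microglial and neuronal identity, lay at 1321, 1329 and 1722 CPM in saline 1, 2 and 6 and at 1351, 1081 and 993 CPM in IL-27 4, 5 and 10, with negative values in IL-27 5 and 10 relative to saline and overlap through IL-27 4 (edgeR log2FC -0.32, SE 0.18, unadjusted p 0.0912, adjusted p 0.996). Runx1, a haematopoietic factor, lay at 728, 941 and 814 CPM in saline 1, 2 and 6 and at 768, 945 and 525 CPM in IL-27 4, 5 and 10, with IL-27 10 lowest (log2FC -0.10, unadjusted p 0.635), and was lower than in microglia with disease-associated genes in 5 of 6 libraries (difference -0.18). Genes of TGF-β signalling, which maintains the homeostatic state, had a median of -0.00264 over 11. Its receptor gene Tgfbr1 lay at 1478, 1659 and 1569 CPM in saline 1, 2 and 6 and at 1835, 1918 and 1532 CPM in IL-27 4, 5 and 10, with overlap (log2FC 0.19, unadjusted p 0.28).

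Phagocytosis genes gave 10 positive and 7 negative values, with a median of 0.03. Abca1, the cholesterol efflux transporter, lay at 714, 883 and 708 CPM in saline 1, 2 and 6 and at 1002, 859.9 and 1362 CPM in IL-27 4, 5 and 10, with overlap between saline 2 and IL-27 5 (edgeR log2FC 0.46, SE 0.20, unadjusted p 0.0322, adjusted p 0.996). Gas6, the ligand that bridges dying cells to TAM receptors, lay at 85.7, 66.0 and 59.0 CPM in saline 1, 2 and 6 and at 38.1, 45.3 and 42.6 CPM in IL-27 4, 5 and 10, without overlap but under the count filter, and was lower than in microglia with disease-associated genes in 6 of 6 libraries (difference -0.65). Purinergic sensing genes had a median of -0.04 over 5 and heat shock genes of -0.11 over 7. Hspa8, a constitutive chaperone gene, lay at 286, 189.9 and 401 CPM in saline 1, 2 and 6 and at 131, 209 and 184 CPM in IL-27 4, 5 and 10, with saline 2 below IL-27 5 (edgeR log2FC -0.71, SE 0.30, unadjusted p 0.0248, adjusted p 0.996). No immediate-early gene passed the count filter in the strict subset, and Btg2 and Klf6 averaged 50.6 and 66.4 CPM there.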
